A study of Mus musculus with 32 samples.

Results

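The genes of the major histocompatibility complex (MHC) and of antigen presentation were followed through lung RNA of mice with and without Bmal1, a transcription factor of the circadian clock whose gene carries the symbol Arntl. Members were all rows whose symbol begins with H2- (the mouse MHC) together with B2m, Cd74, Ciita, Tap1, Tap2, Tapbp and Nlrc5. These were 52 of the 41687 rows of the table, of which 36 belong to class I, 12 to class II and 4 carry an H2- symbol outside both. Lungs came from 12 adult mice aged 8 to 18 weeks, 6 wild type (WT, C57b/6) and 6 Bmal1 knockouts (KO), all bred in-house and labelled female. The knockout allele, and whether it was lost in all cells or in some, was not given in the sources used here. Every mouse gave a RiboZero library (ribosomal RNA removed by pull-down) and a PolyA library (messenger RNA selected by its tail), each from 200 ng of RNA. Mice 3 to 6 of each genotype also gave a NoSelect library, made without either step from 15 ng of RNA in 6 preparations that were combined. Total estimated counts ran from 11638594 to 25801237 in RiboZero, 29924325 to 41548830 in PolyA and 74979802 to 115059756 in NoSelect.

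Class I molecules stand on nearly all nucleated cells. A heavy chain (H2-K1 and H2-D1 are the classical ones) pairs with the light chain B2m and shows peptides from inside the cell to CD8 T cells. The transporter subunits Tap1 and Tap2 bring these peptides into the endoplasmic reticulum, Tapbp (tapasin) helps load them, and Nlrc5 switches on class I transcription. Class II molecules are made mainly by dendritic cells, macrophages and B cells, and in lung also by alveolar type 2 cells. Their alpha and beta chains (H2-Aa with H2-Ab1, H2-Eb1 for the E molecule) assemble with the invariant chain Cd74, exchange its fragment for peptide with the help of H2-DM, are restrained by H2-O, and depend on the coactivator Ciita. Mice of the C57BL/6 background make no functional E alpha chain, and the row H2-Ea-ps was at 0 in all 32 libraries.

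Before the comparisons, 2 disagreements with the labels were seen. KO mouse 6 was labelled female, yet Xist, the RNA that silences an X chromosome in females, stood at 0.102, 0.0743 and 0.137 CPM (read counts scaled to library size within a preparation) in its RiboZero, PolyA and NoSelect libraries. The other mice had at least 1068, 401 and 501 CPM. The Y-linked gene Ddx3y was at 112, 63.9 and 25.4 CPM in this mouse and at 0 in all others. The NoSelect library of the same mouse carried liver as its tissue although its title and the series design give lung. It held 1867 CPM of the surfactant gene Sftpc, above the 1268 to 1742 CPM of the other NoSelect libraries, and 16 counts of albumin (Alb). Its 6 liver markers summed to 1.81 CPM, against 0.679 to 1.69 in the others. The target itself was lower in KO: Arntl ranged from 19.1 to 23.6 CPM in KO and 34.1 to 42.6 in WT in RiboZero, and from 5.80 to 6.58 and 9.70 to 10.4 in NoSelect. In PolyA the groups met, at 26.8 to 32.4 in KO and 31.9 to 37.9 in WT. Leaving out KO mouse 6 left the number of members called at 0 in each of the 3 preparations.

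Most members lie in the MHC on chromosome 17 (GRCm38, GENCODE M21): H2-K1 (ENSMUSG00000061232) at 33996017 to 34000347, H2-Ab1 (ENSMUSG00000073421) at 34257689 to 34269419, H2-Aa at 34282744 to 34287823 and H2-D1 at 35262730 to 35267499. B2m is on chromosome 2, Nlrc5 on 8, Ciita on 16 and Cd74 on 18. MHC promoters are known for a shared module of boxes, of which the X2 box resembles a cyclic AMP response element and the Y box is an inverted CCAAT sequence, bound by RFX, CREB and NF-Y proteins and then by Ciita or Nlrc5. Stretches holding a TGACG or TGATG and, further on, an ATTGG are shown because 7 class I and class II genes described here share this order. Each is written 5′ to 3′ on the strand of its gene, before a RefSeq transcript start on GRCm38.p6, with the TGACG or TGATG and the ATTGG in capitals. RefSeq starts can differ from the GENCODE positions above: the stretches of H2-D1 and H2-DMb1 lie before their RefSeq starts but inside the GENCODE bounds of these genes.
H2-Aa, chr17:34287859-34287905 (-): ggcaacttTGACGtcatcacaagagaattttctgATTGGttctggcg
H2-Eb1, chr17:34305773-34305820 (+): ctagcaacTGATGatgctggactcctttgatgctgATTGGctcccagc
H2-DMb1, chr17:34153094-34153142 (+): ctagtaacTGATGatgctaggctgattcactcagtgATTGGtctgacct
H2-Ob, chr17:34238818-34238860 (+): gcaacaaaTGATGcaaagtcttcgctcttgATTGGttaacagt
H2-K1, chr17:34000351-34000396 (-): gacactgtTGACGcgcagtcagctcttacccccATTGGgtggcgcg
H2-D1, chr17:35262982-35263030 (+): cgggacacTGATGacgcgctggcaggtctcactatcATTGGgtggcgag
B2m, chr2:122147601-122147646 (+): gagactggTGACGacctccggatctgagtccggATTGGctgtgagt

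The spacer between the capitals was 17 bases in H2-Ob, 20 in H2-K1 and B2m, 21 in H2-Aa, 22 in H2-Eb1 and 23 in H2-DMb1 and H2-D1. The capitals mark the first match in reading order. In H2-D1 a TGACG overlaps the marked TGATG and lies nearer to the ATTGG. A second TGATG does so in H2-Eb1 and H2-DMb1. The spacers of these genes are shorter if counted from there, so the spread of spacers depends on this choice. Promoter windows of 250 bases before the start were found for 35 member genes, as 38 windows. TGACG or TGATG followed by ATTGG on the strand of the gene after 10 to 25 bases stood in 14 of them, from 13 genes, and in 0.706% of all 32851 windows. ATTGG alone, on either strand and including those of the pairs, stood in 34 member windows and in 33.8% of all. The E-box CACGTG, the sequence that Bmal1 with its partner Clock is known to bind, stood in 0 of the 38 member windows and in 6.02% of all. These motifs were chosen after the sequences were read, and a match or its absence in a window says nothing of binding.

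Of the 52 members, 36 had enough counts to be tested in at least 1 preparation and 35 in all 3 (22 class I, 11 class II and 2 others). The other 16 never exceeded 6 counts in a library, and 9 of them were at 0 throughout. They comprised 13 class I genes, 7 of them of the H2-M10 group, the class II row H2-Ea-ps, and H2-Pa and H2-Pb. Levels between genes were compared as CPM per kilobase of the main transcript in WT PolyA libraries (SD, n = 6). The invariant chain Cd74 was highest at 1198 ± 204, followed by B2m at 1064 ± 198, H2-K1 at 899 ± 174 and H2-D1 at 667 ± 91.7. The class II chains came next, with H2-Aa at 610 ± 92.2, H2-Ab1 at 448 ± 64.4 and H2-Eb1 at 295 ± 50.8. Cd74 and B2m, B2m and H2-K1, and H2-D1 and H2-Aa differed by less than 1 SD. Loading and transport genes were lower, at 124 ± 8.03 for Tapbp, 37.9 ± 3.88 for Tap2 and 32.9 ± 7.81 for Tap1. Both regulators were near the bottom of the named genes, Nlrc5 at 7.28 ± 1.76 and Ciita at 4.94 ± 1.44, and so were the H2-O chains H2-Ob at 8.83 ± 3.11 and H2-Oa at 6.93 ± 2.47.

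Near-identical copies limit how far single class I rows can be read. The share of a gene's 31-base transcript words that also occur in other genes was 50.7% for H2-T10, mostly through H2-T22, 57.8% for H2-Q5, 50.3% for H2-Q6, 39.1% for H2-Q7 and 38.4% for H2-Q4. It was 22.8% for H2-K1 and 26.7% for H2-D1. H2-DMb1 and H2-DMb2 shared about as much, at 31.4% and 36.4%, and reads of such genes could have been divided between them. B2m, H2-DMa, H2-Oa, H2-Ob and Nlrc5 shared none.

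The main comparison set KO beside WT for class I and class II genes, 1 preparation at a time. The classical class I chains and B2m had similar means in both genotypes. The class II chains H2-Aa, H2-Ab1 and H2-Eb1 and Cd74 had lower means in KO in all 3 preparations. Even so, no member passed the test (edgeR quasi-likelihood test, Benjamini-Hochberg adjustment over all rows, adjusted p under 0.05). The number called was 0 of 35 members in RiboZero, where 3.46% of all rows were called, 0 of 36 in PolyA, against 4.03% of all rows, and 0 of 35 in NoSelect, against 2.17%. DESeq2 called 1, 0 and 0 members, where it called 985 of all rows in RiboZero and 1355 in PolyA. At an unadjusted edgeR p under 0.05 there were 5, 1 and 2 members. Of all rows tested, 2739 of 16710, 3098 of 17211 and 2696 of 17124 were under it. Those 5 in RiboZero, named after their values were seen, were Cd74, H2-Aa, H2-Eb1 and H2-DMa, all lower in KO, and H2-M5, higher. The median log2 fold change of class I was 0.01, 0.00 and 0.05 in RiboZero, PolyA and NoSelect, and that of class II was -0.23, -0.24 and -0.27, beside a median of 0.00 over all rows each time. Of the 11 class II genes, 8, 9 and 10 were below 0, where 50%, 50.8% and 49.8% of all rows were. In all 3 preparations 8 class II genes lay below 0, and Ciita was the 1 above 0. The genes were measured in the same mice, and the preparations share these mice. The signs are therefore not independent between genes or between preparations. Without WT mouse 6, H2-DMb2 moved above 0 in RiboZero (0.034) and PolyA (0.045).

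**Figure D1:**
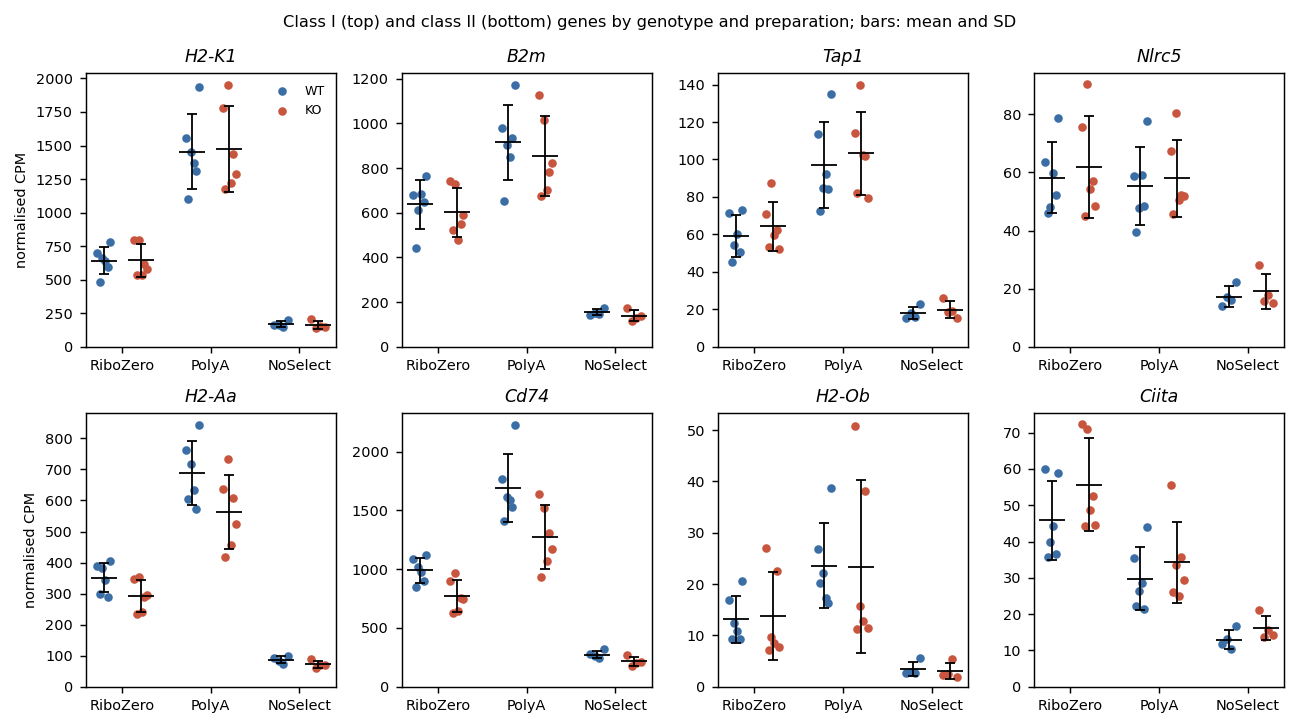
Normalised CPM (y axis, linear from 0) of 4 class I genes (top) and 4 class II genes (bottom) in each library, by preparation and genotype (WT blue, KO red), with mean and SD bars. WT and KO points overlap in every panel, and CPM are scaled within a preparation.

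Cd74 came closest to the threshold in RiboZero and PolyA, though not in NoSelect. In RiboZero its 6 WT libraries ran from 849 to 1124 CPM with a median of 999 and its 6 KO libraries from 626 to 972 with a median of 750. In PolyA they ran from 1406 to 2225 (median 1601) in WT and from 931 to 1636 (median 1242) in KO. In NoSelect mice 3 to 6 held 275, 260, 242 and 317 in WT and 268, 180, 206 and 212 in KO. The groups overlapped each time, through KO mice 1 and 3 in RiboZero and PolyA and KO mouse 3 in NoSelect, and every KO library lay below the WT mean. The log2 fold change was -0.36 (SE 0.111, edgeR adjusted p = 0.107) in RiboZero, -0.41 (SE 0.144, adjusted p = 0.150) in PolyA and -0.34 (SE 0.127, adjusted p = 0.242) in NoSelect. Cd74 in RiboZero passed in DESeq2 (adjusted p = 0.0277) and, in edgeR, without KO mouse 3 (log2 fold change -0.44, adjusted p = 0.0377).

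The chains of the class II molecule had lower means in KO and did not pass the test. H2-Aa, the A alpha chain, ran from 291 to 404 CPM (median 364) in WT RiboZero libraries and from 233 to 354 (median 292) in KO. In PolyA it ran from 571 to 842 (median 675) in WT and from 417 to 734 (median 566) in KO. In NoSelect it held 93.3, 83.4, 73.0 and 99.1 CPM in WT mice 3 to 6 and 88.0 in KO mouse 3 and 60.04, 70.9 and 70.05 in the other KO mice. WT mouse 6 was highest in every preparation, KO mouse 2 was lowest in RiboZero and PolyA and KO mouse 4 in NoSelect, with much overlap between. Its log2 fold changes were -0.27, -0.29 and -0.27 (edgeR adjusted p = 0.285, 0.297 and 0.356). The A beta chain H2-Ab1 gave -0.25, -0.27 and -0.25 (adjusted p from 0.317 to 0.393), and the E beta chain H2-Eb1 gave -0.29, -0.30 and -0.28 (adjusted p from 0.270 to 0.447). For H2-Eb1 the PolyA means were 493 ± 84.7 CPM (SD, n = 6) in WT and 399.8 ± 100.2 in KO.

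The peptide editors did not pass either. H2-DMa and H2-DMb1, whose products form H2-DM, gave -0.24, -0.24 and -0.17 and -0.23, -0.21 and -0.16 on the log2 scale, with edgeR adjusted p between 0.246 and 0.574. In RiboZero all 6 KO libraries of H2-DMa lay below the WT mean of 33.8 ± 4.35 CPM, at 24.7 to 33.6. The genes H2-DMb2, H2-Oa and H2-Ob varied so much among mice that their intervals were wide: the 95% interval of the PolyA log2 fold change ran from -1.11 to 0.73 for H2-DMb2, from -1.03 to 0.51 for H2-Oa and from -0.88 to 0.85 for H2-Ob. These intervals hold KO differences in either direction that the data do not exclude, and their ends are not limits of detection.

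Ciita, the coactivator on which class II transcription depends, lay on the other side of 0. Its RiboZero libraries ran from 35.8 to 59.9 CPM (median 42.0) in WT and from 44.4 to 72.2 (median 50.7) in KO. In PolyA they ran from 21.3 to 44.0 (median 27.4) in WT and from 24.9 to 55.6 (median 31.5) in KO. In NoSelect WT mice 3 to 6 held 11.6, 13.1, 10.5 and 16.8 CPM and KO mice 21.1, 13.6, 15.6 and 14.3. KO mouse 1 was the highest in RiboZero and PolyA and KO mouse 3 in NoSelect, and the groups overlapped. The log2 fold change was 0.28 (SE 0.169), 0.20 (SE 0.219) and 0.31 (SE 0.174), with edgeR adjusted p of 0.464, 0.679 and 0.444. In PolyA it was 0.02 without KO mouse 1.

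The classical heavy chains H2-K1 and H2-D1 had log2 fold changes near 0. H2-K1 ran from 481 to 782 CPM (median 652) in WT RiboZero libraries and from 533 to 799 (median 598) in KO. In PolyA it ran from 1103 to 1939 (median 1409) in WT and from 1174 to 1948 (median 1361) in KO. In NoSelect it ran from 150.2 to 201 in WT and from 139.7 to 204 in KO (n = 4 each). Both groups spanned nearly the same range. Its log2 fold changes were 0.00, 0.02 and -0.07, and the 95% intervals reached from -0.28 to 0.29, -0.31 to 0.35 and -0.37 to 0.24. H2-D1 gave 0.01, -0.03 and -0.02, with intervals inside -0.26 to 0.21. A separate row for 1 H2-D1 transcript, not added to the gene, held 0.782% to 2.87% of its counts.

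The partners of class I did not pass the test. B2m, the shared light chain, gave log2 fold changes of -0.08, -0.10 and -0.15, with PolyA means of 915 ± 170 CPM (SD, n = 6) in WT and 854 ± 180 in KO. The transporter subunits gave 0.12, 0.09 and 0.13 for Tap1 and -0.04, -0.02 and 0.00 for Tap2. Tapbp, which varied least among them, gave -0.08, -0.05 and -0.04 with 95% intervals within -0.20 to 0.08. Nlrc5, the class I coactivator, gave 0.09, 0.07 and 0.14, and its RiboZero libraries ran from 46.0 to 78.8 CPM in WT and from 45.1 to 90.2 in KO. The edgeR adjusted p of these 5 genes and of H2-K1 and H2-D1 lay between 0.495 and 0.999.

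H2-M5, a nonclassical heavy chain gene singled out after its values were seen, was the 1 member with no overlap between the genotypes, and this held in NoSelect, where 9.51% of all rows had none. In RiboZero and PolyA, where 2.89% and 3.21% of all rows had none, the number of such members was 0. In NoSelect it held 0.452, 0.444, 0.399 and 0.445 CPM in WT and 0.745, 0.850, 0.620 and 0.497 in KO, which are 35 to 69 counts. The log2 fold change was 0.53, 0.24 and 0.63 (edgeR adjusted p = 0.164, 0.354 and 0.136). The NoSelect value was the lowest adjusted p of any member there. The KO RiboZero libraries ran from 1.58 to 2.68 CPM, and WT from 0.981 to 1.92.

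**Figure D2:**
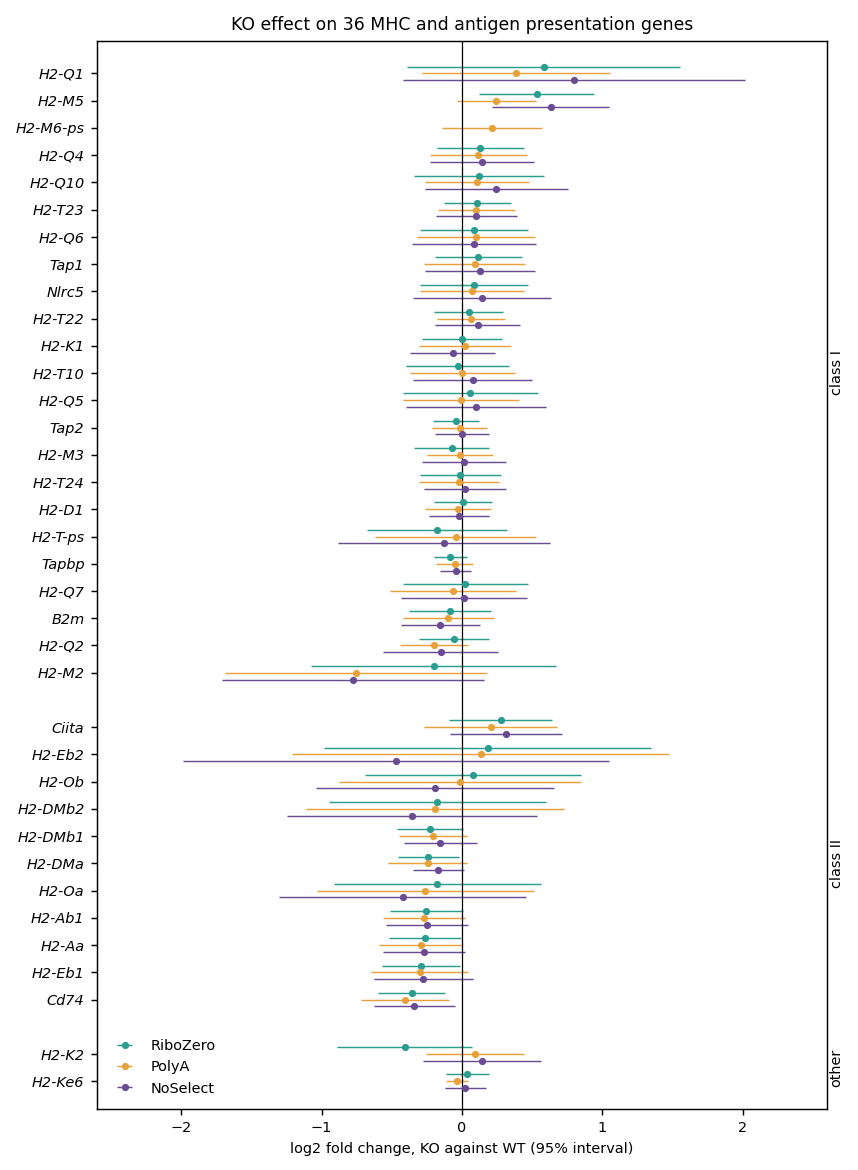
Log2 fold change of KO against WT (x axis) with 95% intervals for the 36 tested members (y axis), by preparation in colours and by class from top to bottom. Class I genes scatter about 0, and most class II genes lie left of it, with Cd74 at -0.36 in RiboZero.

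Whether the KO effect depended on the preparation was tested as an interaction. The number of members called was 0 for each of the 3 pairs of preparations (edgeR, 0% of all rows called in each), and DESeq2 called 0 members. The number at an unadjusted p under 0.05 was also 0. Of all rows, 331 of 18164 were under it for PolyA and RiboZero, 412 of 18372 for PolyA and NoSelect, and 244 of 17502 for RiboZero and NoSelect. For Cd74 the difference of the KO effects was -0.03 between PolyA and RiboZero, with a 95% interval from -0.42 to 0.36. These main fits had no term for the mouse, although the same mice gave both preparations, so differences among mice enter the interval. With the mouse as a block the number of members called was also 0.

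In bulk tissue, fewer cells of a type and less RNA per cell cannot be told apart, so markers of the cells that make class II were set beside it. The summed CPM of the class II members ran from 1692 to 2265 in WT and 1292 to 1995 in KO in RiboZero, from 3140 to 4664 and 2124 to 3638 in PolyA, and from 456 to 617 and 364 to 539 in NoSelect. The 8 macrophage and monocyte markers ran from 257 to 324 in WT and 205 to 271 in KO, from 347 to 484 and 227 to 345, and from 74.3 to 83.8 and 52.4 to 69.8, so that the groups met in RiboZero only. Of these markers C1qa and Csf1r were called lower in RiboZero, C1qa, C1qb and Csf1r in PolyA, and C1qa and C1qc in NoSelect. C1qa, a subunit of the complement starter C1q, changed by -0.59, -0.66 and -0.68 (edgeR adjusted p = 0.0343, 0.0407 and 0.0345). That call held in 3 of 12, 3 of 12 and 2 of 8 fits that left out 1 library, those without KO mouse 1, KO mouse 3 or WT mouse 2 in RiboZero and PolyA and without KO mouse 3 or WT mouse 6 in NoSelect, with adjusted p of up to 0.0792, 0.0889 and 0.0986 in the rest. C1qb in PolyA held in 3 of 12 such fits, without KO mouse 1, KO mouse 3 or WT mouse 2 (up to 0.0900 otherwise). Csf1r, the receptor for macrophage growth factor, held in 10 of 12 fits in RiboZero, all but those without KO mouse 2 or WT mouse 5 (up to 0.0643). In PolyA it held in 5 of 12, without KO mice 1, 3 or 6 or WT mice 2 or 4 (up to 0.0679 otherwise). C1qc in NoSelect held in 5 of 8 and was lost without KO mice 4 or 5 or WT mouse 4 (up to 0.0664).

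Dendritic cell markers summed to 153 to 169 CPM in WT and 125 to 158 in KO in RiboZero, to 143 to 180 and 111 to 155 in PolyA, and to 43.0 to 47.7 and 39.1 to 44.8 in NoSelect. Of these 8 markers 1 was called in each preparation, where 3.46%, 4.03% and 2.17% of all rows were. It was Itgax, the integrin CD11c, lower at -0.33, -0.54 and -0.29 (edgeR adjusted p = 0.0221, 0.0174 and 0.0388). The call held in 8 of 12, 12 of 12 and 1 of 8 fits that left out 1 library. It was lost in RiboZero without KO mice 2 or 5 or WT mice 3 or 5 (up to 0.0572 as adjusted p) and in NoSelect held without KO mouse 3 alone (up to 0.111). The 6 alveolar type 2 markers reached 10110 to 14110 CPM in KO and 11340 to 14600 in WT in RiboZero, and Sftpa1, a surfactant protein gene, was called lower in each preparation (-0.49, -0.66 and -0.57, edgeR adjusted p = 0.00776, 0.00457 and 0.0179). That call held in 12 of 12, 12 of 12 and 4 of 8 such fits, and was lost in NoSelect without KO mice 4 or 5 or WT mice 4 or 5 (up to 0.0666). The 4 neutrophil markers had medians of 1.17, 1.29 and 1.34 on the log2 scale, with 14.4 to 84.3 CPM in KO and 15.0 to 25.2 in WT in RiboZero, and edgeR called Retnlg higher in PolyA. Of the 5 B cell, 6 T cell, 3 NK cell, 6 alveolar macrophage and 3 endothelial markers and Ptprc, the pan-leukocyte marker, 0 were called by edgeR in any preparation. No marker of these lists was at 0 in all libraries of a preparation. The part of these cells in the class II values was not tested.

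Beyond the members, the other genes of the pathways were taken from lists. Of 12 class I pathway genes (immunoproteasome subunits, peptide trimming and chaperones) edgeR called 0 in each preparation, with list medians of -0.04, -0.05 and -0.06. The same count of 0 held for 10 factors of MHC transcription (RFX, NF-Y, CREB and interferon signalling, medians 0.06, 0.04 and 0.02) and for 6 co-stimulatory ligands (medians -0.26, -0.45 and -0.16). Of 13 interferon-response genes 12 were tested and 0 called, with medians of -0.06, 0.01 and -0.02. All of these shares lie beside the 3.46%, 4.03% and 2.17% of all rows called.

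Lysosomal proteases that cut antigens and the invariant chain gave calls in both directions. Among 8 class II pathway genes (these proteases, a thiol reductase and ubiquitin ligases), Ctsh (cathepsin H) was lower and Ctsl (cathepsin L) higher in RiboZero, Ctsh and Ctsb (cathepsin B) were lower in PolyA, and 0 were called in NoSelect. Ctsh ran from 232 to 291 CPM (median 264) in WT PolyA libraries and from 187 to 242 (median 198) in KO, where KO mouse 6 alone reached into the WT range. It changed by -0.34, -0.38 and -0.38 on the log2 scale (edgeR adjusted p = 0.0327, 0.0130 and 0.0752). The PolyA call held in 12 of 12 fits without 1 library, and the RiboZero call in 3 of 12, those without KO mouse 6, WT mouse 1 or WT mouse 2. Without KO mouse 6, whose labels are in doubt, Ctsh was called lower in RiboZero and NoSelect as well (edgeR adjusted p = 0.00192 and 0.00261). Ctsb changed by -0.21 in PolyA (edgeR adjusted p = 0.0151), and the call was lost without KO mouse 2 (adjusted p = 0.0536) or WT mouse 5. Ctsl changed by 0.18 in RiboZero (adjusted p = 0.0252), a call lost without KO mouse 2, KO mouse 4, WT mouse 3 or WT mouse 6, at 0.0517 to 0.0571.

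Of 9 class I-like genes outside the MHC, 7 were tested. Azgp1, a soluble zinc-binding glycoprotein with a class I fold, was called lower in KO in each preparation. In RiboZero it ran from 2.79 to 4.70 CPM (median 3.25) in WT and from 1.53 to 2.49 (median 1.94) in KO. In PolyA it ran from 5.93 to 12.7 (median 8.05) in WT and from 3.72 to 7.22 (median 4.45) in KO, and in NoSelect from 0.790 to 1.07 and from 0.344 to 0.554. The groups overlapped in PolyA, through KO mouse 2, and were separate in RiboZero and NoSelect. Its log2 fold change was -0.75 (SE 0.168), -0.81 (SE 0.200) and -0.94 (SE 0.179), with edgeR adjusted p of 0.0277, 0.0418 and 0.0360. The call was lost in RiboZero without KO mice 4, 5 or 6 or WT mouse 3 (adjusted p from 0.0520 to 0.0597). In PolyA it held only without KO mouse 2 or WT mouse 6, with up to 0.0866 otherwise, and in NoSelect it was lost without any 1 of the 8 libraries (0.0520 to 0.0980). Mr1, which shows vitamin metabolites to MAIT cells, was called higher in RiboZero (0.30, edgeR adjusted p = 0.0460) and kept that call only without KO mouse 3, KO mouse 5 or WT mouse 1.

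Mice differed widely within a genotype. In PolyA, over both genotypes, the highest mouse exceeded the lowest by a median of 1.84-fold over class I members and 2.39-fold over class II members. The medians of class I and class II were 1.938 and 1.845 in RiboZero and 1.687 and 1.823 in NoSelect. The order of the classes thus differed between preparations. The highest mouse was often the same in 2 preparations: 25 of 35 members had the same highest mouse in RiboZero and PolyA. KO mouse 3 was the highest for 13 members in RiboZero, 13 in PolyA and 17 in NoSelect, among them Tap1, Tap2 and Nlrc5 each time. Its class I members summed to 3889 CPM in RiboZero, beside 3654 in KO mouse 1 and 3616 in WT mouse 6, and 2380 to 3439 in the others. The interferon-response markers in RiboZero summed to 471 CPM in KO mouse 3, the highest, and to 467 in KO mouse 4, whose class I sum was 2635. In PolyA these markers were highest in KO mouse 4, at 668 CPM, beside 606 in KO mouse 3. The part of interferon signalling in the class I values was not tested. H2-Ke6, a steroid dehydrogenase gene that lies within the MHC, had the lowest ratio of the highest to the lowest mouse in PolyA, at 1.13, and Tapbp had it in RiboZero, at 1.23, and in NoSelect, at 1.15.

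The H2-O chains, H2-DMb2 and H2-Eb2 followed another set of mice. H2-O is known as a product mainly of B cells and thymic epithelium. In PolyA H2-Ob held 50.8 CPM in KO mouse 1, 38.7 in WT mouse 6 and 38.2 in KO mouse 5, and 11.3 to 26.8 in the other 9. H2-Eb2, an E beta-like gene, held 10.4, 6.74 and 5.63 in these mice and 0.818 to 3.11 in the others. KO mouse 1, WT mouse 6 and KO mouse 5 were the highest 3 for all 4 genes in PolyA, and for all but H2-Oa in RiboZero. The same mice were also the highest 3 for Ciita and H2-T-ps in PolyA, but not in RiboZero. The highest to lowest ratio in PolyA was 12.7 for H2-Eb2, 5.95 for H2-DMb2, 4.51 for H2-Ob and 3.99 for H2-Oa.

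The summed B cell markers (Ms4a1, Cd79a, Cd79b, Pax5 and Fcer2a) were highest in the same mice. In PolyA they reached 202 CPM in KO mouse 1, 141 in WT mouse 6 and 129 in KO mouse 5, and 22.5 to 68.7 in the other 9. In RiboZero the 3 mice stood at 92.0, 57.5 and 55.4 and the others at 14.5 to 42.1. In NoSelect, which lacks KO mouse 1, WT mouse 6 and KO mouse 5 held 18.8 and 18.1 and the others 4.24 to 8.82. T cell markers and Ptprc were also highest in KO mouse 1 and WT mouse 6 in RiboZero and PolyA. In PolyA these mice held 104.3 and 116.5 CPM of the T cell markers and 123.1 and 117.9 of Ptprc. There KO mouse 5, at 54.4 and 87.9, lay below WT mouse 3, at 57.4 and 90.2. KO mouse 1, WT mouse 6 and KO mouse 5 were singled out after the values were seen. The part of B cells or of other leukocytes in the 4 genes was not tested.

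**Figure D3:**
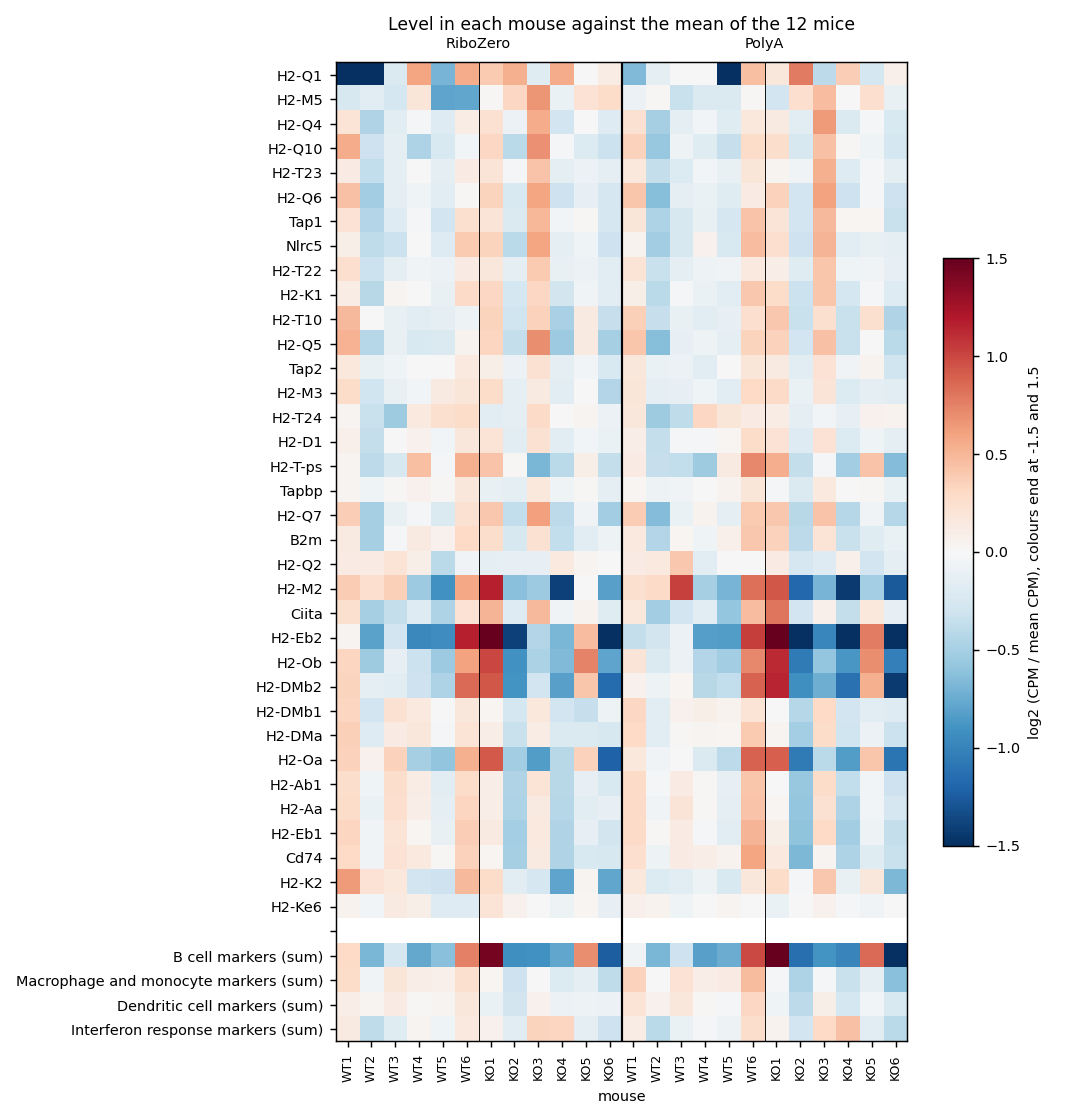
Log2 of the CPM in each mouse over the mean of the 12 mice, for the 35 members tested in all preparations (rows) and 4 sums of markers (bottom rows), in RiboZero (left) and PolyA (right); colours end at -1.5 and 1.5. KO mouse 1, WT mouse 6 and KO mouse 5 are red in the rows of H2-Eb2, H2-Ob, H2-DMb2 and the B cell markers.

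The preparations were then compared over both genotypes, and a member was called where its adjusted p was under 0.05 and it lay 1 or more from 0 on the log2 scale. PolyA gave higher levels than RiboZero for most members, mostly by less than that. By the full rule 2 of 36 members were called, where 23.2% of all rows were. They were H2-M6-ps, a pseudogene, at 1.00 and Ciita at -1.01. By adjusted p alone 27 members were higher and 3 lower in PolyA, beside 42.7% and 38.7% of all rows, and the median member difference was 0.58 where that of all rows was 0.07. Among the named genes, H2-K1 was higher by 0.85, H2-Eb1 by 0.79, H2-Ab1 by 0.73, H2-DMa by 0.71, H2-Aa by 0.61, H2-D1 by 0.52 and Cd74 by 0.40 on the log2 scale, with edgeR adjusted p of at most 0.000319. B2m, at 0.17, did not pass (adjusted p = 0.131).

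The regulators went the other way. Ciita (edgeR adjusted p = 4.84e-07), Nlrc5 at -0.42 (adjusted p = 0.00410) and H2-T24 at -0.64 (adjusted p = 1.44e-06) were the 3 members lower in PolyA. The log2 differences of Ciita and H2-M6-ps lie at the threshold: Ciita stayed between -1.05 and -0.97 and H2-M6-ps between 0.91 and 1.11 over the alternatives tried, and both fell short of 1 without KO mouse 3. H2-M6-ps had 2 to 10 counts in RiboZero libraries and 14 to 31 in PolyA.

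Against NoSelect, PolyA gave 3 calls of 36, where 24.6% of all rows were called: H2-Ke6 at 1.68, H2-Oa at 1.02 and Ciita at -1.02 (edgeR adjusted p = 1.44e-19, 0.00303 and 4.55e-06). H2-Oa lost its call with the mouse as a block (log2 difference 0.92), with mice 3 to 6 alone (0.91), in DESeq2 and with median-of-ratios size factors (0.97 in both), with at least 10 counts in every library (0.99), and without KO mouse 1 (0.86) or WT mouse 5 (0.99). Ciita fell short of the limit without KO mice 2, 3 or 4 or WT mice 2 or 4, at -0.9997 to -0.97. The adjusted p of both stayed under 0.05 in these fits. Of the words of H2-Ke6, 76.1% occur in other genes, so its level is uncertain. By adjusted p alone 26 members were higher and 3 lower, beside 42.1% and 37.5% of all rows. The 3 lower ones were again Ciita, Nlrc5 (-0.52) and H2-T24 (-0.49). Both contrasts share the PolyA libraries, so the second is not an independent repeat of the first.

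RiboZero and NoSelect, which both skip tail selection, gave 0 calls among 35 members, where 4.04% of all rows were called. At an unadjusted edgeR p under 0.05 there were 8 members, beside 8857 of all 17015 rows tested, and DESeq2 called 0 members. By adjusted p alone H2-M3 (0.36) and H2-Ke6 (0.78) were higher in RiboZero and Tapbp (-0.24), H2-Q7 (-0.40) and H2-Q10 (-0.50) lower, beside 24.8% and 21.9% of all rows. Ciita differed by -0.04 (95% interval -0.31 to 0.23), Nlrc5 by -0.12 (-0.42 to 0.19) and Cd74 by 0.01 (-0.17 to 0.19).

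**Figure D4:**
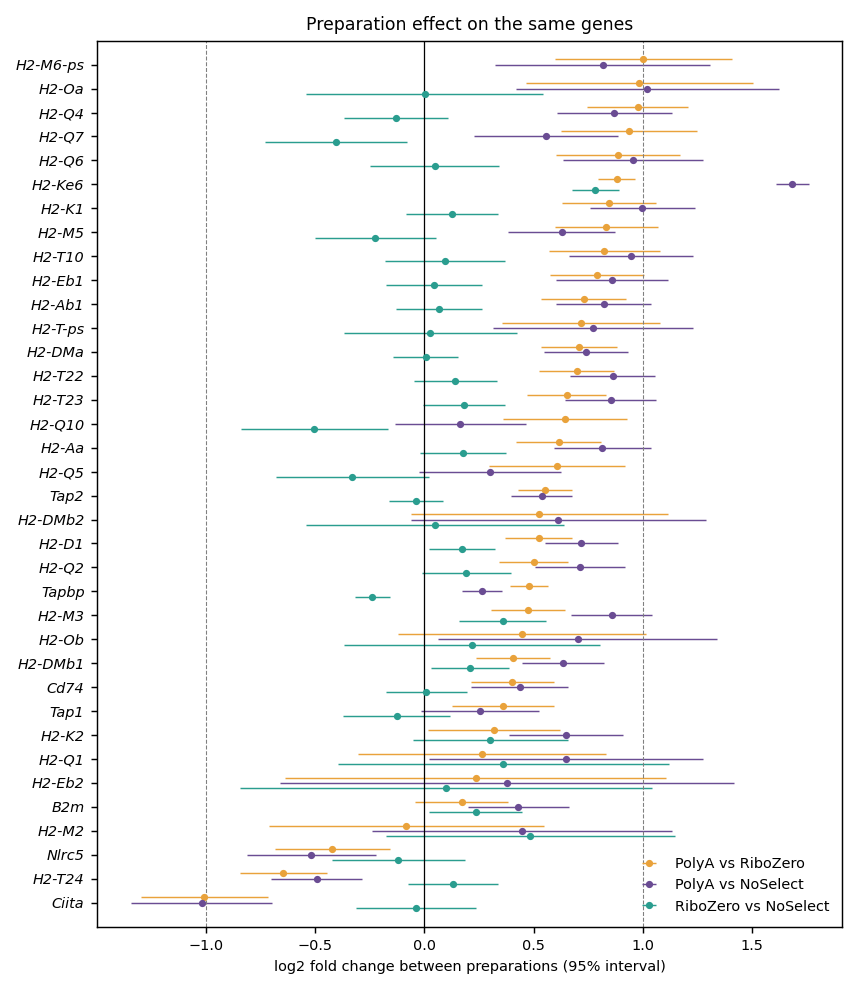
Log2 fold change between preparations (x axis) with 95% intervals for the tested members (y axis, ordered by PolyA against RiboZero), dashed lines at -1 and 1. Ciita, H2-T24 and Nlrc5 lie left of 0 in both contrasts with PolyA, and most other members right of it.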

How the data were processed

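The deposited file holds, for every gene, estimated counts that the authors made with Salmon 1.4.0 and build GRCm38, with UMI-tools 1.1.1 also named, per the submitters' processing notes. The annotation they used, and whether duplicates were removed, was not given in the sources used here. All 32 columns were matched to libraries by title, and 0 were left unused. Counts were rounded and tested in R 4.3.3 with edgeR 4.0.16 (TMM, filterByExpr, glmQLFit, glmQLFTest, Benjamini-Hochberg over all rows). KO was compared with WT within a preparation, preparations with genotype as a covariate, and KO effects by interaction. The main fits between preparations and of interactions had no term for the mouse. Per-library values are CPM on the TMM scale of their preparation. The fits were tested on simulated data with changes larger than the KO differences of the members. That test therefore says nothing of the power to detect differences as small as these. Intervals are at 95% from the fit.

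Members and gene lists were chosen with earlier results of these data known. A marker gene of the lists is not reported here and enters no sum. Named were H2-K1, H2-D1, the class I partners and regulator, the class II chains, Cd74, Ciita, H2-DM and H2-O genes, any member called in KO against WT, the 3 highest and lowest calls between preparations, and list genes called in KO against WT. Other genes are named where the text says they were seen first. Alternatives were DESeq2 1.42.0, median-of-ratios scaling, other filters, replicate blocks, mice 3 to 6 and leaving out each library.

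Libraries of 1 mouse in different preparations are paired by the labels' mouse numbers. Their deviations from group means correlated at 0.535 to 0.790, and the best match was the own mouse for 12 of 12, 8 of 8 and 8 of 8. A number shared by a WT and a KO library names separate animals. Replicates differed by more than sampling noise (chi-square per degree of freedom 7.02 to 69.9 over 72 pairs). Gene positions and words are from GENCODE M21 and may differ from the authors' annotation.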

Additional observations from a re-analysis of the deposited data

Results flagged for a closer look

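In 4 of the 114 groups of libraries checked over 19 members, 1 library stood far from the rest by Dixon's test. Chance alone flags about 1 in 20 groups. Ciita in KO mouse 1 held 55.6 CPM in PolyA, with the nearest KO library at 35.7. In WT mouse 6, H2-DMb2 held 35.8 CPM in PolyA (nearest 20.3), H2-Oa 12.8 CPM in PolyA (nearest 7.70) and H2-Ob 5.57 CPM in NoSelect (nearest 2.93).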

How the results depend on the processing

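Member calls in KO against WT were 0 in all alternatives for PolyA (18) and NoSelect (13) and in 16 of 18 for RiboZero. There, DESeq2 called 1 member and leaving out 1 library gave 0 to 1, the call being Cd74 both times. Between PolyA and RiboZero the 2 calls became 1 in DESeq2, with median-of-ratios size factors and with at least 10 counts in every library. Leaving out 1 mouse gave 0 to 3 calls there and 2 to 5 between PolyA and NoSelect, with 0 without KO mouse 3, 1 without KO mouse 4 or WT mice 1, 4 or 5, and 3 without KO mouse 1 or WT mouse 3 in the former, and 2 without KO mice 1 or 3 and 5 without WT mouse 6 in the latter. Ciita and H2-M6-ps between PolyA and RiboZero, and H2-Oa and Ciita between PolyA and NoSelect, lie close to the limit of 1. H2-Ke6 between PolyA and NoSelect does not, at 1.64 to 1.72 over the alternatives. With the mouse number as a replicate block, KO against WT gave 0 member calls in each preparation, though equal numbers are different animals (correlation of deviations -0.173 to 0.281). The mouse as a block gave 2, 3 and 0 calls between preparations, where H2-Oa lost its call between PolyA and NoSelect, and changed no count of interactions among members. Of 1503 recomputed values for named genes, 1316 stayed on their side of the threshold, 158 lost the call, 29 gained it and 0 reversed while called. The 1316 include 55 that changed sign and were called in neither fit, all with an absolute main log2 fold change of at most 0.194. Low counts limit H2-Oa (17 to 442), H2-Eb2 and H2-M5.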
